A study of Mus musculus with 2 samples.

Results

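The let-7 microRNAs let-7a, let-7c and let-7f are each made from a pair of separate genes in the mouse genome. The 6 genes are Mirlet7a-1, Mirlet7a-2, Mirlet7c-1, Mirlet7c-2, Mirlet7f-1 and Mirlet7f-2. They were taken by name from the GENCODE M21 annotation and were 6 of the 2202 microRNA genes counted. Small RNA, recorded with a size range below 30, was sequenced from hippocampal tissue, labelled a layer without saying which. The mice were females of the strain B6CASTF1/J, 18 to 20 months old. These mice are first-generation hybrids of the laboratory B6 strain and the wild-derived CAST strain. The 2 libraries, biological replicates 1 and 2, carry the same strain, sex, age and tissue, were untreated as far as the labels say, and had no comparison group. Their tissue records give different animal numbers but 1 donor record, so the spread between them may be partly technical.

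A let-7 gene is transcribed as part of a longer RNA, cut to a hairpin and then to a short duplex. The 5p arm of the hairpin, the main let-7 product, guides silencing of messenger RNAs that match its seed, and the 3p arm is mostly discarded. Let-7 accumulates as cells differentiate, is held back in stem cells by the LIN28 proteins, and lowers growth genes such as those of the RAS and HMGA2 families. Mature let-7 is abundant in the adult brain.

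The mature 5p arms are shown first because they are why the copies are hard to tell apart. Capitals mark the seed, bases 2 to 8 from the 5′ end.
let-7a-5p: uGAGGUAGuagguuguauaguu
let-7c-5p: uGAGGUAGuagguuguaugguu
let-7f-5p: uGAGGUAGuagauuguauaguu
All 3 share 1 seed, which 11 of the 1679 mature names in the RefSeq table (GRCm38.p6) carry. Counted from the 5′ end, let-7c-5p differs from let-7a-5p by A19G alone and let-7f-5p by G12A alone. For let-7a and let-7c, the nearest arms of other let-7 genes are as close. The arm let-7e-5p differs from let-7a-5p by U9G, and let-7b-5p from let-7c-5p by A17G. For let-7f-5p the nearest such arms compared, let-7e-5p and let-7g-5p, differ by 2 bases.

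The 6 hairpins show where copies of 1 mature sequence part from each other. Capitals mark the mature 5p arm and then the mature 3p arm. RefSeq held all 6, and each was identical to the counted gene.
Mirlet7a-1: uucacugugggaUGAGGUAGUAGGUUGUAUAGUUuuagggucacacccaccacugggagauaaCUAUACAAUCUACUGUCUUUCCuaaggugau
Mirlet7a-2: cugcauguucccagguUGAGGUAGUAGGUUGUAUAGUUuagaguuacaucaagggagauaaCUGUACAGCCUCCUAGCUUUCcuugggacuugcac
Mirlet7c-1: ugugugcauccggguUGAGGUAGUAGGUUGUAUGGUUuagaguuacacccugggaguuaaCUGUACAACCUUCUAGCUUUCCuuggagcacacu
Mirlet7c-2: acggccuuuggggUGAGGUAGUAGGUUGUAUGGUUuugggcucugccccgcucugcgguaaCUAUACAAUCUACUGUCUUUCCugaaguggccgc
Mirlet7f-1: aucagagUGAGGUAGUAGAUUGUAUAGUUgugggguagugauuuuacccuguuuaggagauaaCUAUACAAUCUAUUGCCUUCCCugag
Mirlet7f-2: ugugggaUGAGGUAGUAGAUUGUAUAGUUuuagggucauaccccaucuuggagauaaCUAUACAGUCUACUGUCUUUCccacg
Outside the 5p arm the copies differ. Over the whole aligned hairpins, with the shared 5p arm included, identity was 68.6% for the let-7a pair, 67.3% for the let-7c pair and 70.8% for the let-7f pair. The hairpins most alike carry different mature names: Mirlet7a-1 and Mirlet7f-2 were 79.8% identical, and Mirlet7a-2 and Mirlet7c-1 79.4%.

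Each full 5p arm occurs in both copies, so a read of exactly that arm has no single place among the hairpins. Starting from the first base of the 5p arm, a read had to reach 23 nt to fit 1 let-7f copy only and 24 nt to fit 1 let-7a or let-7c copy only. This is a match of sequence, and whether the copy that fits is the copy that made the read was not tested. For the 3p arms the genes fell into 2 kinds. In Mirlet7a-2, Mirlet7c-1, Mirlet7f-1 and Mirlet7f-2 the 3p arm occurred in no other of the 2202 hairpins, and its first 18 nt already fitted 1 gene alone. For Mirlet7f-1, Gm24111, a gene annotated over the same bases on the opposite strand, was not counted as another hairpin. In Mirlet7a-1 and Mirlet7c-2 the 3p arm is the same sequence, inside a shared stretch of 26 nt, so both mature arms of these genes fit a second hairpin as well. The number of windows of 22 nt found in another hairpin was 7 of 73 in Mirlet7a-1 and 7 of 74 in Mirlet7c-2. It was 2 of 75 in Mirlet7a-2, 2 of 73 in Mirlet7c-1, 1 of 68 in Mirlet7f-1 and 1 of 62 in Mirlet7f-2. The deposited files keep reads that fit several places in a separate multimapping total, outside every gene, and they do not say which arm a counted read came from.

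**Figure D1:**
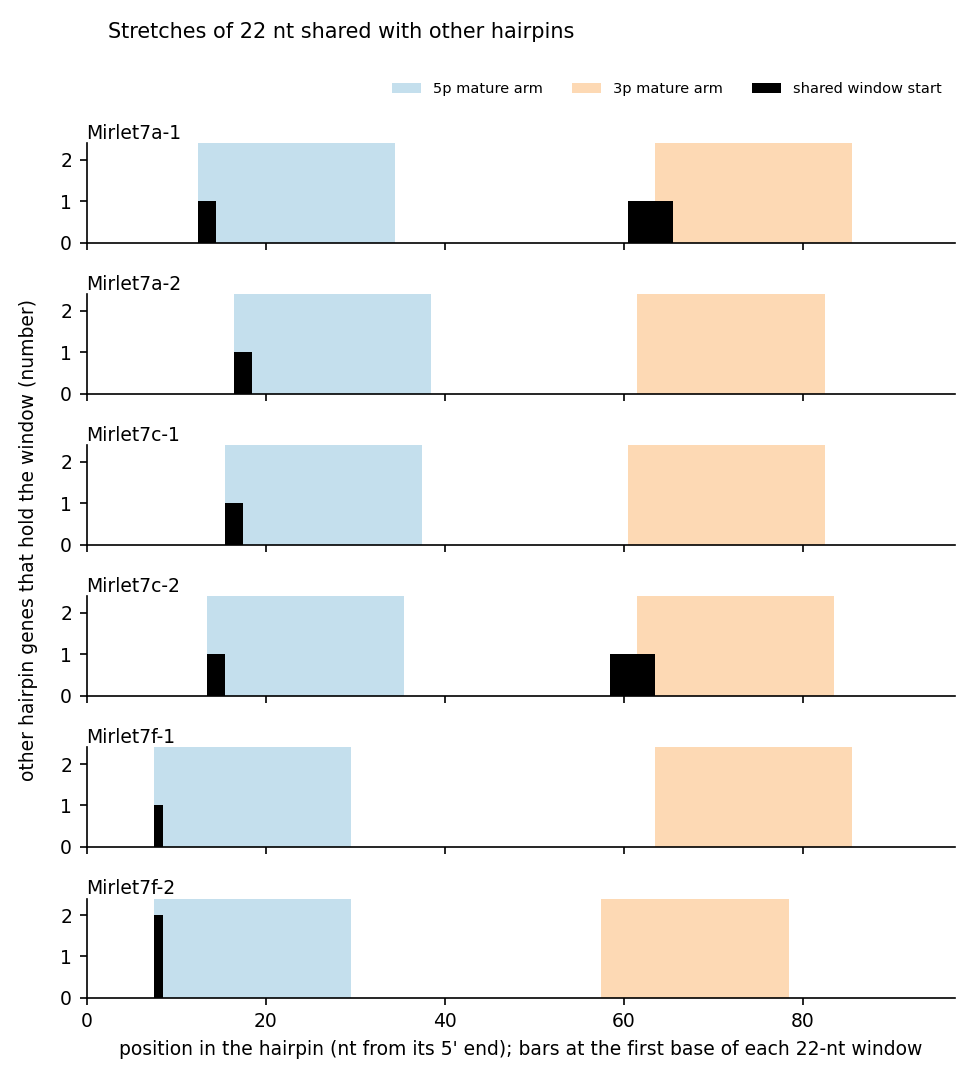
Position along each hairpin (x axis, nt from its 5′ end) against the number of other hairpin genes that hold the 22-nt window starting there (y axis), with the mature arms shaded. Shared windows start at the 5p arm in all 6 hairpins and at the 3p arm only in Mirlet7a-1 and Mirlet7c-2; the count of 2 in Mirlet7f-2 includes Gm24111, a gene annotated on the opposite strand of Mirlet7f-1.

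Levels are sense-strand counts scaled to the library's sum of gene counts and given as CPM. Replicate 1 held 2255838 and replicate 2 held 4521208 sense counts, and multimapping reads numbered 1.20 and 1.29 per counted read. A detection floor of 3 counts came to 1.33 and 0.664 CPM, and all 6 genes lay above it, the lowest value being 125 CPM. Unmapped reads made up 29.0% of all reads in replicate 1 and 11.2% in replicate 2; their part in the results below was not tested. The libraries differed beyond counting error, with a chi-square over degrees of freedom of 386 across 734 genes, so they are not 1 library deposited again. Brain microRNAs fitted the tissue label in part: 9 of 13 listed markers reached 1 CPM in both libraries, their sum was 107445 and 84075 CPM, and none was at 0 in both. Mir124a-1, Mir124a-2, Mir124a-3 and Mir9-2, all with same-named copies, stayed under 1 CPM in at least 1 library, and Mir124a-2 was at 0 in replicate 2. Reads that fit several places are outside these counts. Low values of genes with copies therefore do not give the amount of the mature microRNA, and the part of such reads was not tested. In bulk tissue, fewer cells of a type and less RNA per cell cannot be told apart. Of markers of other tissues, liver Mir122 stood at 14.6 and 43.1 CPM, the 7 muscle genes summed to 17.3 and 27.2 CPM with 4 at 0, the 3 pancreas genes to 2.22 and 1.99 CPM, the 3 blood genes to 138 and 136 CPM, and the 4 choroid plexus genes to 2688 and 1230 CPM.

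The duplicated genes held few of the let-7 counts. Together they took 0.623% ± 0.00945 (SD, n = 2) of all sense counts and 1.94% ± 0.200 of the counts of the 12 let-7 genes, among which Mir98 belongs by its seed. Their summed count equalled 0.514% of the multimapping total in replicate 1 and 0.489% in replicate 2. In both libraries all 6 lay below the lowest single-copy let-7 gene, Mir98, at 6972 ± 522 CPM. How many multimapping reads came from let-7a, let-7c or let-7f is not known from the files, so these levels describe the reads that could be placed and can be far below the amount of the mature microRNAs.

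Mirlet7f-2 stood far above the other copies. Its 9480 counts in replicate 1 came to 4202 CPM (exact 95% Poisson limits 4118 and 4288), and its 19343 in replicate 2 to 4278 CPM (4218 and 4339). Its mean was 4240 ± 53.6 CPM, rank 44 of all genes, and its libraries differed by less than the mean gap to any other copy.
Mirlet7c-2 followed with 1886 and 4523 counts, or 836 and 1000.4 CPM, a mean of 918 ± 116 CPM. Its libraries differed more than their counting intervals (799 to 875 and 971 to 1030 CPM).
Mirlet7c-1 had 934 and 1823 counts, or 414 and 403 CPM, a mean of 409 ± 7.66 CPM. Its libraries overlapped within counting error (388 to 441 and 385 to 422 CPM).

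The 3 lowest genes lay close together. Mirlet7f-1 had 675 and 1296 counts, or 299 and 287 CPM, a mean of 293 ± 8.89 CPM. Mirlet7a-1 had 527 and 927 counts, or 234 and 205 CPM, a mean of 219 ± 20.2 CPM. Mirlet7a-2 had 405 and 565 counts, or 180 and 125 CPM, a mean of 152 ± 38.6 CPM and rank 184. The order of the 6 genes was the same in both libraries, and for each pair of neighbours the lower library of the higher gene exceeded the higher library of the lower gene. The narrowest step was from Mirlet7a-1 to Mirlet7a-2, with 205 against 180 CPM at the closest and a gap of means of 67.1 CPM against summed SDs of 58.8 CPM. From highest to lowest, the means differed 27.9-fold. The hairpins are 83 to 96 nt long. The smallest ratio of neighbouring means was 1.34-fold (Mirlet7f-1 over Mirlet7a-1), so scaling by length could not change the order. On a scale of mean CPM per 100 nt the values ran from 5109 for Mirlet7f-2 to 159 for Mirlet7a-2. Intervals cover counting error only, not the spread between libraries. They take reads as independent, but reads made by ligation and PCR are not independent molecules, so the intervals can be too narrow.

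**Figure D2:**
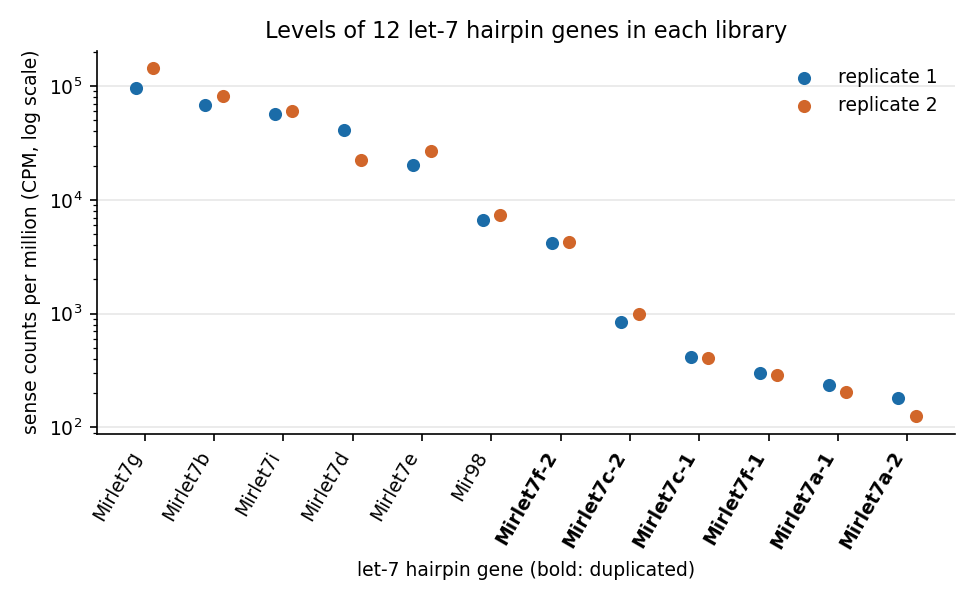
Level of each of the 12 let-7 hairpin genes (y axis, CPM on a log scale) in replicate 1 and replicate 2, ordered by mean, with the 6 duplicated genes in bold. All 6 bold genes lie below Mir98, the lowest single-copy gene, and Mirlet7f-2 lies apart from the other copies at 4240 CPM.

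Within each pair the counted reads were split unevenly, and the same copy was ahead in both libraries. Shares are given with exact 95% binomial intervals and need no scaling between libraries. For let-7f the split was the most uneven: Mirlet7f-1 held 6.65% (6.17 to 7.15) of the pair's counts in replicate 1 and 6.28% (5.95 to 6.62) in replicate 2. Mirlet7f-2 thus exceeded Mirlet7f-1 14.0-fold and 14.9-fold. The libraries overlapped in this share, and the mean was 6.46% ± 0.260 (SD, n = 2).
For let-7c the second copy was ahead too. Mirlet7c-1 held 33.1% (31.4 to 34.9) and 28.7% (27.6 to 29.9) of the pair's counts, a mean of 30.9% ± 3.11, so Mirlet7c-2 exceeded it 2.02-fold and 2.48-fold. The intervals of the libraries did not overlap, although the direction was the same.
For let-7a the first copy was ahead, by the least. Mirlet7a-1 held 56.5% (53.3 to 59.8) and 62.1% (59.6 to 64.6), a mean of 59.3% ± 3.95, or 1.30-fold and 1.64-fold the count of Mirlet7a-2.

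The copies of let-7a and of let-7c differ in whether the 3p arm fits 1 hairpin only, and in neither pair did the gene with such an arm have the higher count. In the let-7c pair the gene that shares both mature arms, Mirlet7c-2, had the higher count. In the let-7a pair, Mirlet7a-1, which shares both arms, was likewise ahead of Mirlet7a-2, whose 3p arm fits 1 hairpin only. In the let-7f pair both 3p arms fit 1 hairpin only, and the counts differed most. The copies also differ in the bases just past the 5p arm. In the higher copies these are uua (Mirlet7a-1), uug (Mirlet7c-2) and uua (Mirlet7f-2). In the lower copies they are uag (Mirlet7a-2), uag (Mirlet7c-1) and gug (Mirlet7f-1). What part either difference has in the split of the counts was not tested. These are descriptions of 3 pairs, and neither the arms nor transcript levels of the copies were measured.

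Other duplicated microRNA genes gave a wide range of splits. Of 43 same-named 2-copy families in the files, 16 had no count and 18 reached 100 counts in each library, 15 of them outside let-7. The higher copy held a median of 74.2% of the counts over these 15 families. By the share of the higher copy, let-7f (93.5%) was below 4 of the 15, let-7c (69.1%) below 8 and let-7a (59.3%) below 13. In the 5 most abundant of the 15, the higher copy held 83.4% in Mir128, 62.3% in Mir138, 99.8% in Mir219a, 86.9% in Mir129 (79.6% and 94.3%) and 53.3% in Mir125b, where Mir125b-1 held 45.4% in replicate 1 and 61.3% in replicate 2. The same copy led in both libraries in 13 of the 15, the exceptions being Mir125b and Mir26a, the latter named after its values were seen: Mir26a-1 held 76.8% in replicate 1 and 9.22% in replicate 2. Mir125b and Mir26a were also the only families of the 15 below let-7a by the mean share of the higher copy. Between the libraries the share moved by 0.368 points for let-7f, 4.39 for let-7c and 5.59 for let-7a, against a median of 3.77 over the 15.

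**Figure D3:**
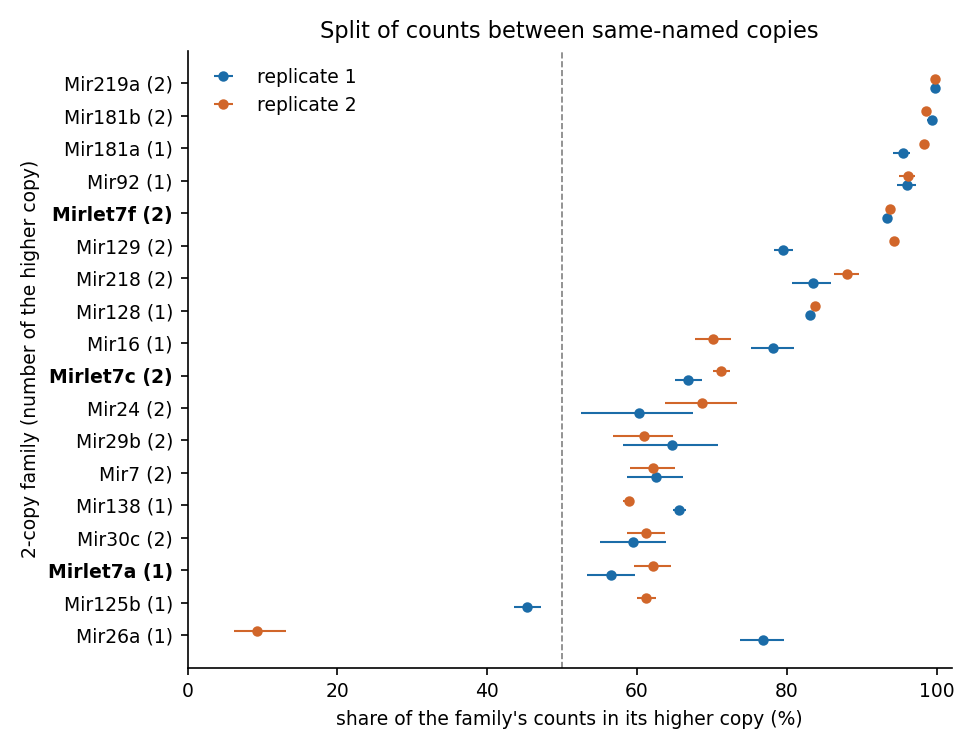
Share of a family's counts held by its higher copy (x axis, %; the copy's number is in brackets) for 18 families of 2 same-named copies, in replicate 1 and replicate 2, with exact 95% binomial intervals. The let-7 families, in bold, span 59.3% to 93.5%, and the dashed line marks an equal split.

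The 6 genes lie in 5 clusters. A cluster is read here as all microRNA genes within 100 kb, and neighbours in it can be cut from 1 transcript. On chromosome 13 of mm10, Mirlet7a-1 (ENSMUSG00000065421.3, 48538179 to 48538272, minus strand) and Mirlet7f-1 (ENSMUSG00000105621.1, 48537829 to 48537917) lie 261 bp apart in exons of the noncoding gene 6720427I07Rik, with Mirlet7d downstream. On chromosome 15, Mirlet7c-2 (ENSMUSG00000065608.1, 85706603 to 85706697, plus strand) lies 621 bp before Mirlet7b, in an exon of the noncoding gene Lncppara. On chromosome 9, Mirlet7a-2 (ENSMUSG00000092770.1, 41536716 to 41536811, plus strand) lies between Mir100 and Mir125b-1, in introns of the noncoding genes 3110039I08Rik and Gm49317. On chromosome 16, Mirlet7c-1 (ENSMUSG00000065557.3, 77599657 to 77599750, plus strand) lies 656 bp after Mir99a and before Mir125b-2, in an intron of Mir99ahg and, on the opposite strand, of Gm11146. On chromosome X, Mirlet7f-2 (ENSMUSG00000065602.1, 151912346 to 151912428, plus strand) lies 785 bp before Mir98 in an intron of Huwe1, which encodes a ubiquitin ligase. Mir3113, 52708 bp from Mirlet7f-2, had no count.

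Duplicated genes stood well below the single-copy partners of their clusters, except on chromosome X. Mirlet7d, at 31918 ± 13489 CPM, had 177 and 109 times the counts of Mirlet7a-1 and 139 and 78.1 times those of Mirlet7f-1. Mirlet7b had 81.4 and 82.0 times the counts of Mirlet7c-2. Mir99a had 122 and 52.4 times those of Mirlet7c-1, and Mir100 had 51.8 and 32.2 times those of Mirlet7a-2. On chromosome X, Mir98 had only 1.57 and 1.72 times the counts of Mirlet7f-2. Elsewhere, partners with a same-named copy were closer in level than the single-copy partner of the same cluster. Mir125b-1 had 3.37 and 6.04 times the counts of Mirlet7a-2, and Mir125b-2 had 1.76 and 1.18 times those of Mirlet7c-1. Mirlet7f-1 had 1.28 and 1.40 times those of Mirlet7a-1. Reads that fit several hairpins are outside the counts of the duplicated genes. These ratios therefore compare reads that could be placed, not amounts of mature microRNA. Why the levels of partners differed was not tested.

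None of the 6 duplicated genes differed 2-fold or more between the libraries, against 25.9% of the 495 genes averaging at least 1 CPM, and none differed 1.5-fold, against 42.8%. The median size of the log2 ratio (replicate 2 over replicate 1) was 0.13 over the 6 genes, 0.51 over all 495 and 0.41 over the 182 genes between 100 and 10000 CPM, of which 16.5% differed 2-fold. These 182 genes are not matched to the 6 in other ways, and with 6 genes a count of 0 lies about 1 gene from the 16.5%. The share of the 182 past 1.5-fold was not computed, and the 495 include genes of lower counts. Mirlet7a-2 differed by more than either median, and the other 5 by less. The ratio furthest from 0 was that of Mirlet7a-2, at -0.52 (counting interval -0.71 to -0.34), followed by Mirlet7c-2 at 0.26 (0.18 to 0.34) and Mirlet7a-1 at -0.19 (-0.34 to -0.03). Mirlet7f-1 at -0.06, Mirlet7c-1 at -0.04 and Mirlet7f-2 at 0.03 had intervals that included 0. These positions relative to 0 hold for the library-sum scaling. The median gene stood at -0.19, and other scalings raise every ratio and its interval by 0.12 (TMM) or 0.19 (DESeq2 size factors). The interval of Mirlet7f-2 then lay above 0 under both, that of Mirlet7c-1 lay above 0 under DESeq2 size factors, and that of Mirlet7a-1 included 0 under both. All ratios shift together, so under each scaling Mirlet7a-2 stayed below the median gene, Mirlet7a-1 was that gene, and Mirlet7c-1, Mirlet7c-2, Mirlet7f-1 and Mirlet7f-2 stayed above it. With 1 library per tissue sample these ratios have no replicate check.

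The ratios of cluster partners lay close together at some loci and apart at others; whether partners shared a ratio was not tested. Mirlet7c-2 and Mirlet7b gave 0.26 and 0.27, with overlapping counting intervals. Mirlet7f-2 and Mir98 gave 0.03 and 0.15, and their counting intervals did not overlap. Mirlet7d gave -0.89 beside Mirlet7a-1 at -0.19 and Mirlet7f-1 at -0.06. Mir99a gave -1.25 and Mir125b-2 -0.61 beside Mirlet7c-1 at -0.04. Mir100 gave -1.21 and Mir125b-1 0.32 beside Mirlet7a-2 at -0.52. The gap between 2 partners' ratios does not depend on the scaling.

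**Figure D4:**
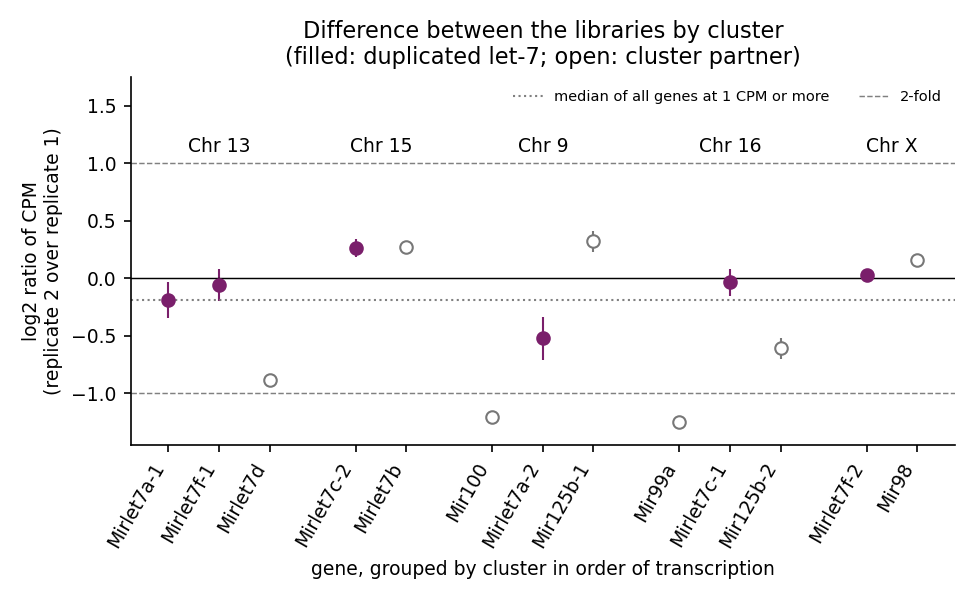
Log2 ratio of CPM in replicate 2 over replicate 1 (y axis) for the genes of the 5 clusters, with counting intervals. Gm24111 and Mir3113, without sense counts, are not shown. Filled points are duplicated let-7 genes and open points their partners. Mirlet7c-2 and Mirlet7b coincide near 0.26, while Mir99a and Mir100 lie below the 2-fold line and Mirlet7c-1 and Mirlet7a-2 above it.

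Strand mattered for 1 of the 6 genes. Without regard to strand, Mirlet7f-1 was listed at 0 in both libraries, and Gm24111 is annotated over it on the other strand. Reads that fall in overlapping genes have a total of their own, which held 180035 and 418828 reads without strand and 0 on the sense strand. On the sense strand Gm24111 itself had 0 counts, and its antisense counts, 675 and 1296, were exactly the sense counts of Mirlet7f-1. At the other 5 genes the unstranded and sense counts were equal, apart from 2 antisense counts at Mirlet7a-1 in replicate 2.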

How the data were processed

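The authors deposited raw counts per microRNA gene, 1 file per library, in an unstranded, a sense and an antisense column below 4 totals (unmapped, multimapping, unassigned, ambiguous). README texts deposited with the files name mm10 as assembly and M21 as annotation; the aligner and counter: not given in the sources used here. The 4 totals were kept out of library sums. Sense counts were scaled to CPM on the library sum; a log2 ratio used a pseudocount of 0.5 counts. Poisson, binomial and ratio intervals are exact 95% intervals, the last from the binomial share of the libraries. No p-value was computed, since the 2 libraries form 1 group. Hairpin windows were matched on both strands to all 2202 annotated hairpins, not to the genome. Named genes were the 6 genes, all microRNA genes within 100 kb, the other let-7 genes (Mirlet7j and Mirlet7k had no match by name) and the 5 most abundant other 2-copy families. The genes, lists and rules were chosen with earlier results of these data known; the minimum of 100 counts per family was set after the counts were seen. The reference is that of B6, so reads of CAST alleles could be lost; this was not measured. The ratio calculation was tested on simulated data. Python 3.11.15, scipy 1.17.1, Biopython 1.88, edgeR 4.0.16 (TMM) and DESeq2 1.42.0 (size factors) were used.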

Additional observations from a re-analysis of the deposited data

How the results depend on the processing

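Of 101 recomputed values over 26 results, 80 stayed within the spread between the libraries, the counting interval or, for counts, 1.5 times the reported value. Part of the 80 could not have moved. For shares, levels and ratios to partners, either library alone lies within the SD of the 2-library mean by construction. Where unstranded and sense counts were equal, shares within pairs and ratios to partners could not move either. With the unstranded counts the share of Mirlet7f-1 in its pair was 0%, as Gm24111 overlaps it, and the share of all counts held by the 6 genes was 0.650%. That share was 0.278% with multimapping reads in the denominator and 0.210% with all 4 totals, which are larger denominators by construction. The number of genes differing 2-fold between the libraries was 53 of 310 at a mean of 10 CPM or more and 288 of 734 at 1 count or more, where lower counts enter; the number among the 6 genes was 0 under each scaling and fold tried. The median share of the higher copy in other families was 82.7% at a minimum of 20 counts (18 families), an alternative chosen after seeing the data. Under TMM the log2 ratios of Mirlet7c-1 and Mirlet7f-1 became 0.08 and 0.06, and under DESeq2 size factors they became 0.15 and 0.13 and that of Mirlet7a-1 0.003; those of Mirlet7c-2 and Mirlet7f-2 became 0.38 and 0.15 under TMM and 0.45 and 0.22 under DESeq2 size factors, and that of Mirlet7a-2 became -0.40 and -0.33. Leaving out 1 library returns the share of the other, as given above, so it is no separate check. The higher copy of each pair was the same. With sense counts of single libraries, the share of the first copy ranged from 56.5% to 62.1% for let-7a, 28.7% to 33.1% for let-7c and 6.28% to 6.65% for let-7f. Ratios between the libraries cannot be had from 1 library. Reads set aside as multimapping are in no level given here.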
